A study of Mus musculus with 20 samples.

Results

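The livers of mice that lack estrogen receptor alpha were compared 4 hours after a gavage of estradiol (E2, the main circulating estrogen) and after placebo. The comparison covers 21237 genes of the 21998 measured in the series, namely those whose probe the scanner files mark as well above background on 4 or more of the 5 arrays of either treatment in these mice. Null E2 mice were ERα-/- and received E2 at 1 mg/kg, in a vehicle that the labels do not spell out, and null placebo mice were ERα-/- and received castor oil with 5% ethanol. Wild-type mice from the same parents, given E2 or placebo in the same way, serve as the measure of a response with the receptor. All mice lost their ovaries at an age of 4 weeks, were gavaged at 9 weeks and killed under ketamine and xylazine, so the controls share the loss of the ovaries and the anaesthesia. Each group held 5 animals with 1 array each. The strain, and which part of the receptor gene was deleted, are not stated in the labels. The question is how large a response to E2 without the receptor these arrays show, and how large a response they leave room for.

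Estrogen receptor alpha, encoded by Esr1, is a nuclear receptor that binds E2 and then acts as a transcription factor, and it is the main estrogen receptor of hepatocytes. E2 can also bind estrogen receptor beta (Esr2) and the membrane receptor GPER (Gper1), and at high doses estrogens are known as ligands of the liver's xenobiotic receptors, chiefly CAR. A response in mice without the alpha receptor would have to run through such other proteins or arise indirectly.

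The labels were checked first. Esr1 stood at -1.63 ± 0.31 in null E2 livers and -1.61 ± 0.48 in null placebo livers, against 0.60 ± 0.41 in wild-type E2 livers and 0.39 ± 0.25 in wild-type placebo livers (log2 intensity relative to the 75th percentile of the array, SD, n = 5 each). On this probe no null liver reached the level of any wild-type liver, but the signal was still well above background in nulls, and the relation of the probe to the deleted part is unknown. The same order held on the other 2 Esr1 probes kept in the fit. The array carries 4 Esr1 probes, and the last was left out as too dim. On it null E2 animal 2 read -1.002, against -7.283 to -5.864 in the other nulls. Wild types read -6.829 to -3.997, so this value lies outside both genotypes. On the 3 kept probes the same animal read -1.592, -3.405 and -4.666, among the other nulls and below all wild types. Several results that rest on this animal are therefore also given without it, among them the differences of Rab38, Sult2a1, Cyp4a12a and Cyp1a1. Others in which it is among the extreme animals, such as those of Rec114, Mmd2, Ddit4 and Esr2, are given only with it. All 8 hepatocyte markers, among them Alb, were well above background on the 10 null arrays, and so was Xist. Null E2 arrays correlated with each other at 0.9819 to 0.9907 across genes, null placebo arrays at 0.9846 to 0.9927, and null E2 with null placebo arrays at 0.9807 to 0.9923. In a piece of liver, fewer cells of a type and less RNA per cell cannot be told apart.

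Catsper2 was the only gene of the 21237 that passed the test for E2 in nulls. It encodes a subunit of the CatSper calcium channel of sperm. That is 0.00471% of the genes compared, or 0.00455% of all genes in the fit. Called here means an adjusted p under 0.05 (limma, Benjamini-Hochberg over all 21998 genes). In wild types the same fit called 70 genes, or 0.318%. The array carries 2 kept probes for Catsper2 on chromosome 2, minus strand, of build mm9, and they are shown because they did not give the same result. The array design assigns the called probe to 2 Ensembl and 2 GenBank transcripts and to no RefSeq transcript. It assigns the other probe to 1 RefSeq and 3 Ensembl transcripts, and both probes share 1 of these. The probe starts lie 1725 bases apart, and no annotation of this build was given that would place them in an exon.
Catsper2 called probe, chr2:121218394-121218453: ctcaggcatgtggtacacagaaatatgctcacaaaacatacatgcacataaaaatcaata
Catsper2 other probe, chr2:121220119-121220178: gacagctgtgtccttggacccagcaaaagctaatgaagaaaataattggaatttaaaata

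On the called probe, Catsper2 read -0.02, 0.10, -0.31, -0.09 and -0.14 in the 5 null E2 livers, against -0.97, -0.73, -0.72, -0.80 and -0.53 in the 5 null placebo livers (log2 level). Every null E2 animal stood above every null placebo animal, and the groups do not overlap. The difference was 0.66 ± 0.09 (SE), a 1.58-fold rise with a 95% interval of 0.47 to 0.85 on the log2 scale (limma, adjusted p = 0.0158). In wild types the same probe differed by -0.15, with an adjusted p of 0.668. The null effect exceeded the wild-type effect by 0.81 ± 0.13 (SE, adjusted p = 0.00497 for the difference).

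The other Catsper2 probe read -0.668, -0.574, -1.022, -0.764 and -0.481 in null E2 livers and -0.957, -0.864, -1.031, -1.102 and -0.777 in null placebo livers. Here the groups overlapped, since the third null E2 animal lay among the placebo animals. The difference on this probe was 0.24, with a 95% interval of 0.01 to 0.47 and an adjusted p of 0.817 over all probes. The intervals of both probes overlap only at their ends. With the mean of both probes as the level of Catsper2, the difference was 0.45 and the adjusted p 0.358.

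**Figure D1:**
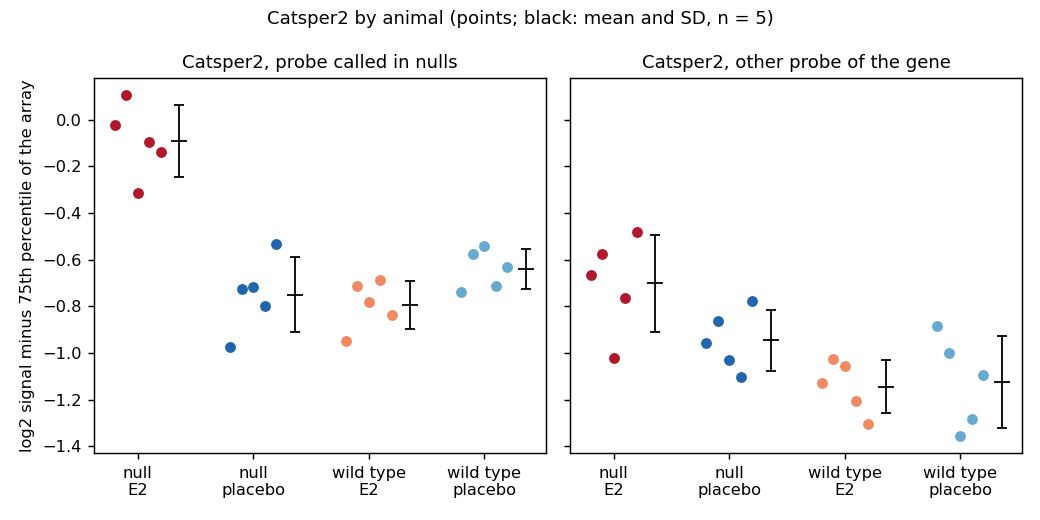
Level of Catsper2 by animal on the called probe (left) and the other probe (right), in null E2, null placebo, wild-type E2 and wild-type placebo livers; the y axis is the log2 signal minus the 75th percentile of the array, points are animals, and the black mark is the mean with its SD (n = 5). The 5 null E2 animals stand above all others on the called probe, while on the other probe they overlap the null placebo animals.

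The call rested on the shared spread of all 20 arrays. With the 10 null arrays alone in the fit, the difference was the same and the adjusted p was 0.754. With 1 null array left out, the adjusted p of Catsper2 passed the threshold in 5 of 10 fits. It was 0.0898 without null E2 animal 1, 0.0789 without animal 2 and 0.0708 without animal 4, and 0.0608 without null placebo animal 2 and 0.0845 without placebo animal 4. None of the 8 measured neighbours, whose probes start at most 81.8 kb from it, was called. Ppip5k1, the farthest, an inositol pyrophosphate kinase gene, differed by 0.24 (unadjusted p = 0.0208), and Ckmt1, the mitochondrial creatine kinase gene 29.0 kb away, by -0.25 (unadjusted p = 0.0726).

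Below the adjusted threshold, 1308 of the 21237 genes had an unadjusted p under 0.05, which is 6.16%. Of these, 601 were higher (2.83%) and 707 lower (3.33%) with E2. An unadjusted threshold of 0.05 passes 5% of genes where none changes, and genes of one liver do not vary independently. Of all genes in the fit, this threshold passed 6.06% in nulls, 3.78% in nulls without null E2 animal 2, and 8.28% in wild types. For 177 genes (0.833%) the null E2 and null placebo groups did not overlap, 52 with all E2 animals higher (0.245%) and 125 with all E2 animals lower (0.589%). The share over all genes in the fit was 0.809% in nulls and 1.5% in wild types.

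The genes of smallest p among those with a gene symbol and without overlap are given as values, since no other than Catsper2 passed the test (limma, adjusted p from 0.360 to 0.818). Before Dus4l by p stood 2 transcripts without a symbol, a chromosome 18 probe (adjusted p = 0.202) and Gm3146 (adjusted p = 0.360). Dus4l, a tRNA dihydrouridine synthase gene, read 0.55, 0.52, 0.27, 0.11 and 0.54 in null E2 livers, against -0.47, -0.51, 0.01, -0.29 and -0.19 in null placebo livers. The difference was 0.69 ± 0.13 (SE). The placebo animal nearest to the E2 group was the third. Pomc, the precursor of ACTH and other peptide hormones, read -2.37, -2.17, -1.96, -1.62 and -1.86 in null E2 livers and -2.81, -2.99, -2.42, -2.60 and -3.06 in null placebo livers, a difference of 0.78 ± 0.17. In wild types the difference was 0.11 for Dus4l and 0.00 for Pomc.

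Rab38, a small GTPase of lysosome-related organelles, differed by 1.19 ± 0.29, and its level in null E2 animal 2 was -0.50 while the other 4 null E2 animals lay between -2.44 and -1.98. Without that animal the difference was 0.85. The histone genes H2ac1, with 0.59 ± 0.16, and H2bu2, with 0.75 ± 0.20, were also in this set. H2bu2 was well above background on 5 null E2 arrays and 2 null placebo arrays. It met the rule on detection only through the group where it is high, so the size of its rise is not exact. After normexp background correction the H2bu2 difference was 0.15. The kinase gene Cdkl1 differed by 0.60 ± 0.13, the mitochondrial protein gene Bola1 by 0.39 ± 0.09, the axonal adhesion gene Cntnap1 by 0.62 ± 0.18 and the transcript D330023K18Rik by 0.51 ± 0.13.

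Among the genes with all E2 animals lower, Fras1, which encodes an extracellular matrix protein of basement membranes, read -2.68, -2.69, -2.55, -2.88 and -2.54 in null E2 livers, against -2.37, -1.87, -2.11, -1.99 and -1.78 in null placebo livers. The difference was -0.65 ± 0.13 (adjusted p = 0.492). Hkdc1, of the hexokinase family, read -3.74, -2.84, -3.41, -3.25 and -2.75 in null E2 livers and -2.06, -2.18, -2.19, -2.22 and -2.30 in null placebo livers, and the spread was wider among the E2 animals. Plin4, a lipid droplet coat protein, read 2.61, 1.80, 2.51, 1.96 and 2.70 in null E2 livers and 3.05, 3.52, 3.66, 2.92 and 3.13 in null placebo livers. The differences were -1.01 ± 0.25 for Hkdc1 and -0.94 ± 0.24 for Plin4.

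The remaining ones were the tetraspanin gene Tspan8 (-0.91 ± 0.23), Mlf1 (-1.06 ± 0.23, well above background on 1 null E2 array and 4 null placebo arrays), the secretory GTPase gene Rab27b (-0.62 ± 0.16), Arhgap8 (-0.43 ± 0.11), Mir17hg, the host transcript of the miR-17-92 cluster (-0.39 ± 0.10), the TNF receptor adaptor gene Traf2 (-0.33 ± 0.08) and the chromatin remodelling gene Arid2 (-0.32 ± 0.08). Over all genes compared, 11380 of 21237 differences were below 0, with a median of -0.01. Beside the lower levels above stand the markers of bile duct cells: 7 of 8 had a difference below 0, with a median of -0.32. The tight junction gene Cldn7 had the smallest unadjusted p of that list (0.0154) and the mean log2 level of the 8 ran from -1.74 to -1.40 in null E2 livers and from -1.67 to -1.05 in null placebo livers. The part of these cells in the result was not tested. All 20 differences kept their sign under 4 other ways to scale or correct the arrays, but their median size was 0.63 here and 0.32 after normexp background correction, where dim probes are drawn together.

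**Figure D2:**
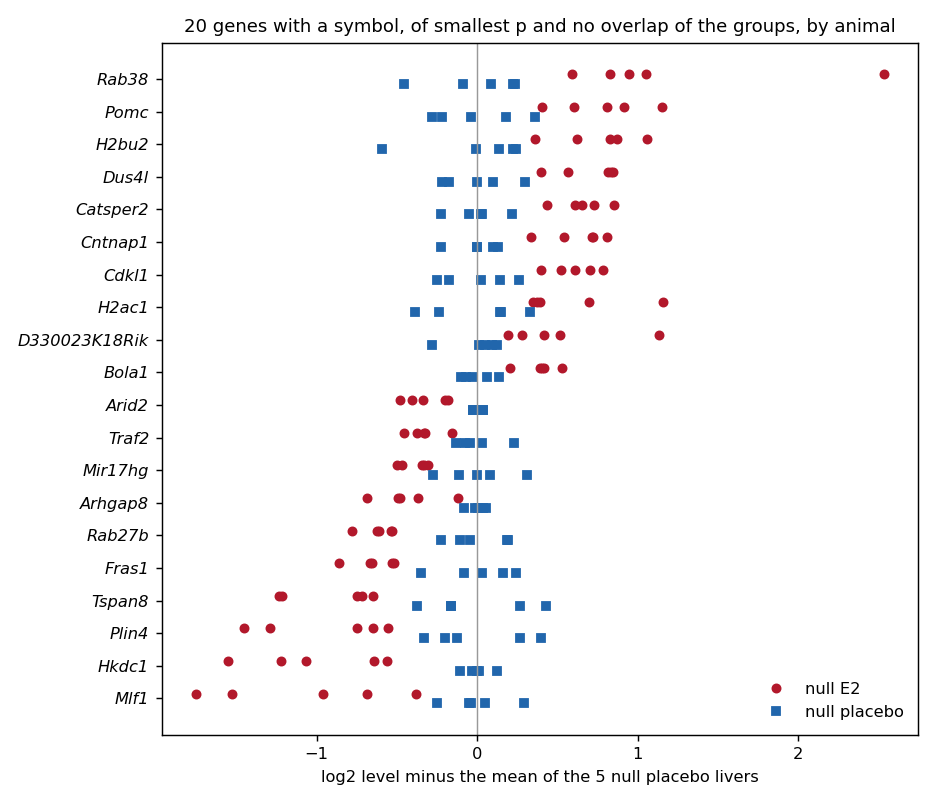
Level by animal of the 20 genes of smallest p, 10 in each direction, among those with a gene symbol and groups that do not overlap; the x axis is the log2 level minus the mean of the 5 null placebo livers, circles are null E2 animals and squares null placebo animals. Rab38 has 1 null E2 animal far to the right, and the E2 animals of Hkdc1 and Plin4 spread more widely than those of the genes near the middle.

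The limit on a response follows from the interval of each gene. The median size of the difference between null E2 and null placebo livers was 0.10 on the log2 scale and the median SE 0.14, so that the 95% interval of a typical gene reached 0.30 to either side, or 1.23-fold. The interval lay inside 2-fold in either direction for 19366 genes, or 91.2%, and inside 1.5-fold for 15006, or 70.7%. Inside 4-fold it lay for 99.1%, which left 199 genes with no such limit. These shares depend on the level: with the genes cut by mean level into 4 classes of equal size, the interval lay inside 2-fold for 77.9% of the dimmest class and 97.1% of the brightest. Inside 1.5-fold it lay for 33.8% of the dimmest class and 89.4% of the brightest.

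These intervals hold for a gene picked in advance. Intervals widened to hold for all genes at once (Bonferroni) reached a median of 0.95 to either side, or 1.93-fold. Of these, 45.1% lay inside 2-fold, 5.96% inside 1.5-fold and 84.3% inside 4-fold. For a first call in nulls a gene had to reach an unadjusted p of 2.27e-06, so a gene of median SE would have needed a difference of about 0.95. In wild types, where more genes passed, the smallest difference called was 0.52.

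**Figure D3:**
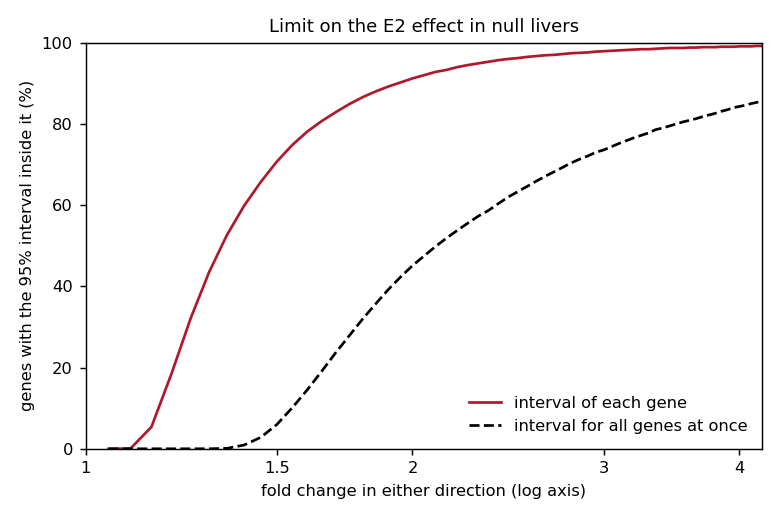
Share of the 21237 genes (y axis, percent) whose 95% interval for the E2 effect in nulls lies inside a given fold change in either direction (x axis, log scale); the solid line uses the interval of each gene and the dashed line the interval that holds for all genes at once. At 2-fold the solid line stands at 91.2% and the dashed line at 45.1%.

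At the other end, 5 genes had an interval wholly above a 1.5-fold rise and none had one wholly below a 1.5-fold fall. For 2 of the 5, Lrcol1 and the unnamed chromosome 18 probe, the interval lay wholly above a 2-fold rise. With the intervals that hold for all genes at once, no gene passed either limit. The 5 were the transcripts Gm3146, Lrcol1, Nwd2 and Zic4 and the chromosome 18 probe, and they were singled out after their values were seen. Their adjusted p-values ran from 0.202 to 0.818. All lay in the dimmest of the 4 level classes, and they were well above background on 4 or 5 null E2 arrays and on 0 to 2 null placebo arrays. They thus met the rule on detection only through the group where they are high, and the size of their rise is not exact. For the chromosome 18 probe the null and wild-type effects differed by 2.46 (adjusted p = 0.0475), and the wild types differed by -0.49. No gene was well above background on all 5 arrays of one null group and on none of the other, whereas in wild types 7 genes were so in the E2 group and 1 in the placebo group. A difference of at least 4 arrays was seen in nulls for 13 genes with more E2 arrays and 7 with more placebo arrays, against 39 and 17 in wild types.

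The estimate itself exceeded 2-fold for 119 genes upward and 40 downward. Of these, 76 rises and 20 falls lay in the dimmest of the 4 level classes. The count for both directions was 159 here and 94 without null E2 animal 2, the lowest with 1 null array left out. The highest such count was 254, without null E2 animal 5. It was 39 after normexp background correction and 54 with the deposited log2 values. The largest differences came with the widest spread between animals. Sult2a1, a hydroxysteroid sulfotransferase that female mouse livers express more than male ones, read 6.58, 6.97, -3.27, 1.54 and 0.49 in null E2 livers, against -3.06, 0.20, 4.08, -1.23 and -2.12 in null placebo livers. E2 animals 1 and 2 were the highest and E2 animal 3 the lowest of all 10. The difference of 2.89 had a 95% interval of -0.71 to 6.48, and without null E2 animal 2 it was 1.76. Its paralogs Sult2a4 (2.85), Sult2a6 (2.62) and Sult2a3 (2.74) followed the same animals, and near-identical sequences may let one probe read several of them. The interval of each paralog included 0. Sult2a3 was well above background on 4 null E2 arrays and 1 null placebo array, and Sult2a4 on 4 and 3. Both thus met the rule on detection only through the group where they are high, and the sizes of their differences are not exact.

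Hsd3b5, a steroid dehydrogenase family gene with male-biased expression, differed the other way. It read -6.77, -5.75, 0.11, -4.75 and -4.78 in null E2 livers and 0.03, -3.10, -4.35, -0.43 and -0.33 in null placebo livers. It was well above background on 2 null E2 arrays, those of animals 3 and 5, and on 4 null placebo arrays, so the values of E2 animals 1, 2 and 4 have no order. The fitted difference was -2.75 with an interval of -5.70 to 0.20. Cyp4a12a and Cyp4a12b, male-biased fatty acid hydroxylases, differed by -1.76 (unadjusted p = 0.0213) and -1.99 (unadjusted p = 0.0139), with E2 animal 3 as the highest of its group and E2 animal 2 not well above background. Without E2 animal 2 the Cyp4a12a difference was -1.17. For the pseudogene Serpina4-ps1 the difference was -2.15. Between E2 and placebo animals of the same slide, the Sult2a1 difference ranged from -5.47 to 8.01 and that of Hsd3b5 from -5.23 to 2.02.

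Rec114, a gene of meiotic DNA breaks, had another large difference. It read -1.55, -0.21, -2.55, -1.85 and -6.21 in null E2 livers, against -4.46, -2.59, -6.47, -6.85 and -4.86 in null placebo livers. It was well above background on 4 null E2 arrays and 1 null placebo array, and on 4 wild-type E2 arrays and 1 wild-type placebo array. Rec114 thus met the rule on detection in nulls only through the group where it is high. Most placebo values of both genotypes have no order, so the sizes of its differences, also within slides, are not exact. The null difference of 2.57 ± 1.07 (adjusted p = 0.818) stood beside a wild-type difference of 2.93 (adjusted p = 0.472), and within slides it ran from 1.97 to 4.00 in nulls. AA414992 differed by -1.71, with -7.29 in null E2 animal 5 and 1.51 to 3.36 in the other 4 E2 animals.

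**Figure D4:**
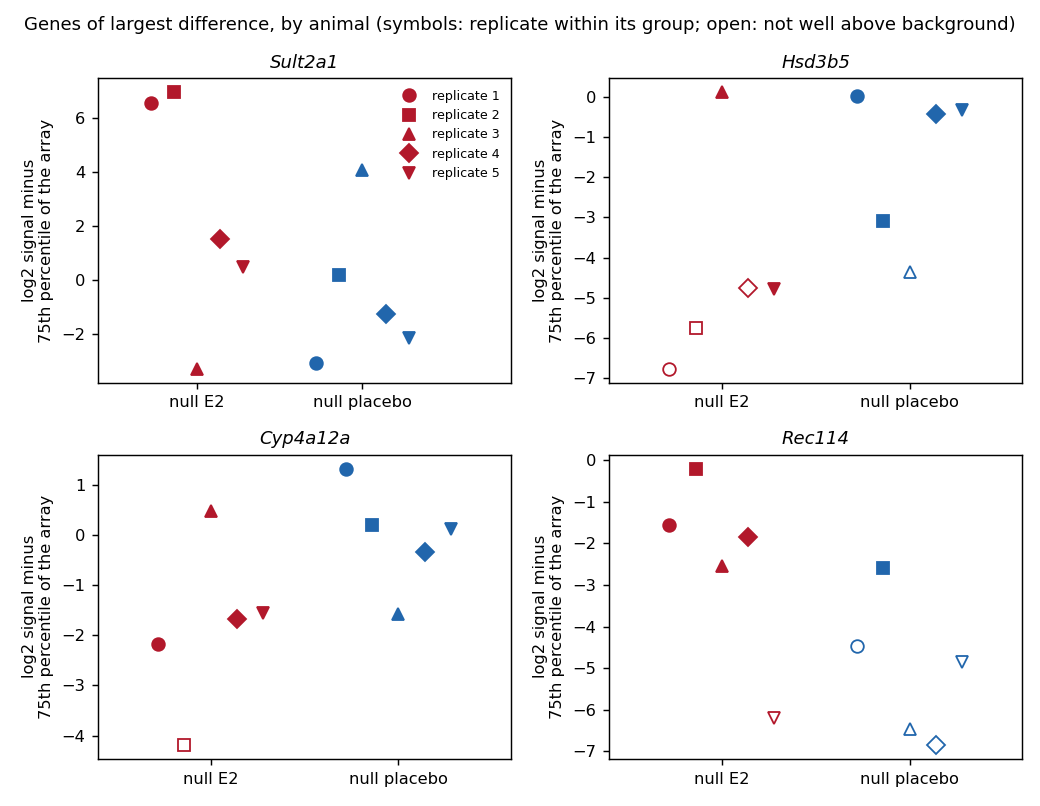
Level by animal of Sult2a1, Hsd3b5, Cyp4a12a and Rec114 in null E2 (left) and null placebo livers (right); the y axis is the log2 signal minus the 75th percentile of the array, the symbol marks the replicate within its group, and open symbols are arrays on which the probe was not well above background. Null E2 replicates 1 and 2 are the highest for Sult2a1, where replicate 3 is the lowest, and replicate 3 is the highest of its group for Hsd3b5 and Cyp4a12a.

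The genes that responded in wild types allow a comparison of each null interval with a measured response. Of the 70 genes called there, 66 were higher and 4 lower with E2. They were chosen on the wild-type arrays, which share no array with the null contrast but share its estimate of the spread. For the 66, the median difference was -0.04 in nulls, with 27 above 0, 39 below and a range from -0.53 to 0.46, against a median of 1.17 in wild types. None of the 70 was called in nulls, and 5 had an unadjusted null p under 0.05, which is 7.14% and near the 6.06% over all genes in the fit. The null interval excluded the wild-type estimate for 70 of 70, of which 60 met the rule on detection in nulls, and it lay inside 2-fold for 60 of 70. That count and the limits below take the wild-type estimate as exact, although it has an SE and the genes were chosen by it. The test of the difference itself called 34 of the 70, none of them a fall. For 57 of the 66, the end of the null interval nearest to the wild-type effect was under 50% of that effect, with a median of 27.7%. The largest such limit was 86.4%, for Ggct, whose 2 effects were not called different (limma, adjusted p = 0.687). The rule on detection in nulls was met by 57 of the 66, and for 51 of these 57 the limit was under 50%, with a median of 26.8%.

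Ggct and Twnk were the only 2 of the 5 that shared the wild-type direction. Ggct, a glutathione-degrading enzyme, differed by 0.34 ± 0.13 in nulls (unadjusted p = 0.0185), against 0.71 in wild types. Twnk, the mitochondrial DNA helicase, differed by 0.21 ± 0.09 in nulls (unadjusted p = 0.0299), against 0.69 in wild types. The other 3, Dntt (-0.53), Fanca (-0.38) and the desmosomal cadherin gene Dsc2 (-0.22), ran opposite to their wild-type rise.

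Gdf15, a stress-induced circulating hormone of the TGF-beta family, read 1.80, 2.41, 1.76, 2.13 and 1.14 in null E2 livers, against 3.04, 2.38, 2.51, 1.55 and 2.09 in null placebo livers. The groups overlapped, and the difference was -0.47, with an interval of -1.29 to 0.36, against 3.36 in wild types. Mmd2 read 0.35, 1.49, -0.79, 0.38 and 0.21 in null E2 livers and 0.46, -0.04, -0.19, -0.73 and -0.001 in null placebo livers, a difference of 0.43 with an interval of -0.246 to 1.099, against 3.38 in wild types. The keratin gene Krt79 differed by 0.24 in nulls with an interval of -0.20 to 0.68, and by 2.47 in wild types. For Hrob the null difference was 0.46, for Rab44, well above background on 3 null E2 and 4 null placebo arrays, 0.32, and for Asb2 0.11, against 3.22, 2.95 and 2.39 in wild types.

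Corin, a serine protease that activates natriuretic peptides, and Trex2, an exonuclease, were well above background on at most 2 arrays of a null group. Slc34a2, a sodium-phosphate cotransporter, and the keratin gene Krt4 were well above background on no null array, and on 5 of 5 wild-type E2 arrays. Slc34a2 read -7.05 to -5.75 in null E2 livers and -6.80 to -5.92 in null placebo livers, with no order between values so dim. Of the 4 wild-type falls, the transcription factor gene Cebpa differed by -0.01 in nulls and -0.63 in wild types, and Rai14 by 0.02 and -0.58. Aspm was well above background on 2 of 5 arrays in each null group and in wild-type E2 livers, so a lower level with E2 could hardly be seen in nulls and its size in wild types is not exact.

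**Figure D5:**
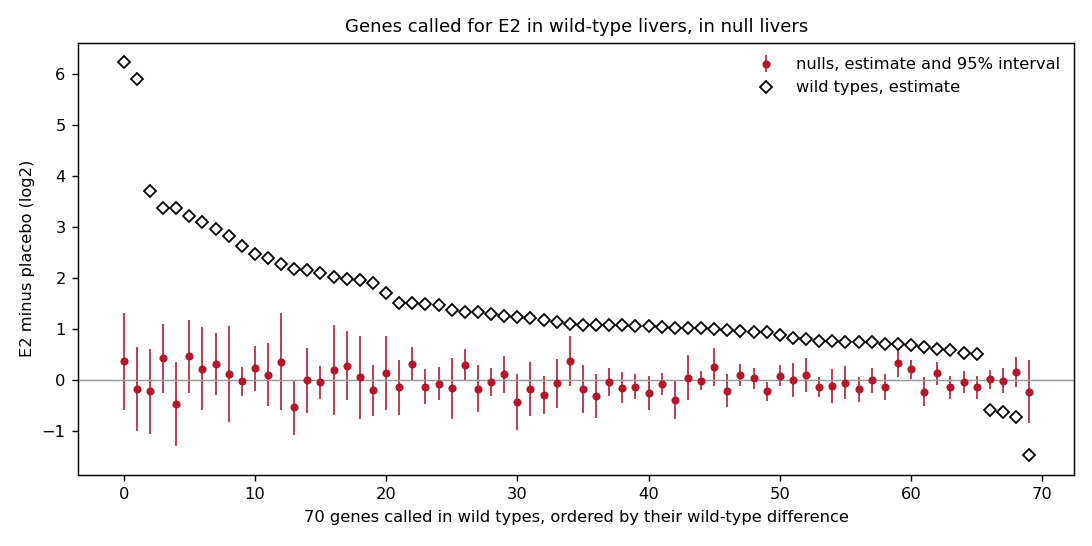
E2 minus placebo difference (y axis, log2) of the 70 genes called in wild types, ordered along the x axis by their wild-type difference; filled circles with bars are the estimates and 95% intervals in nulls and open diamonds the fitted estimates in wild types, also where the placebo arrays were not well above background. The null intervals lie around 0, and none reaches its diamond.

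The difference between the 2 effects was called for 36 genes (0.164% of all), 34 with the null effect lower and 2 with it higher. The 34 were all among the 66 wild-type rises, and the 2 were Catsper2 and the chromosome 18 probe.

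A response that needs no alpha receptor would be looked for in both genotypes. Of the 1308 genes with an unadjusted null p under 0.05, 90 also had one in wild types, where 1706 of the 21237 genes compared did. Over all genes in the fit, 8.28% passed this threshold in wild types, with either sign. The overlap of 90 was thus not above the share over all genes. The 2 effects had the same sign for 41 of the 90, 24 higher and 17 lower with E2, and opposite signs for 49. The 41 are 3.13% of the null genes and 2.4% of the wild-type genes. Across the 21237 genes the null and wild-type effects correlated at 0.043, a description over genes that share arrays and slides. The effect averaged over both genotypes, a contrast added after the data were seen, was called for 29 genes, of which 28 were also called in wild types. The other was Fras1, with -0.65 in nulls and -0.39 in wild types, an average of -0.52 ± 0.09 (SE, adjusted p = 0.023). With each of the 20 arrays left out in turn, the adjusted p of that average ran from 0.00824 to 0.0668 and passed the threshold in 10 of 20, and under 6 other settings it ran from 0.0221 to 0.362 and passed in 1.

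The receptors that could carry an alpha-independent response had no transcript that passed the test. Esr2 read 3.57, 3.30, 2.91, 2.93 and 2.86 in null E2 livers, against 2.91, 2.80, 2.99, 2.85 and 3.04 in null placebo livers. Its difference was 0.20 with an interval of -0.04 to 0.44, and E2 animals 1 and 2 alone lay above all placebo animals. The Esr2 probe read higher than any Esr1 probe did in wild types, and whether it reads Esr2 alone was not tested. Gper1 differed by 0.10 with an interval of -0.36 to 0.55, and Esr1 itself by -0.02 with an interval of -0.49 to 0.46. The other 2 Esr1 probes in the fit differed by 0.30 (interval -0.21 to 0.80) and by 0.56 (interval 0.14 to 0.98, unadjusted p = 0.0115, adjusted p = 0.813 over all probes), the last on a probe well above background on 2 null E2 arrays and no null placebo array. The sign for Gper1 turned to below 0 under array median scaling, under quantile normalization and in the deposited table. All 6 estrogen receptor and estrogen-related receptor genes, and all 9 genes of other receptors that bind E2 or foreign compounds, had intervals inside 2-fold.

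Targets of those xenobiotic receptors served as a readout of their activity. Cyp2b10, the standard target of CAR, read 7.78, 7.53, 7.46, 7.41 and 7.70 in null E2 livers and 7.30, 7.59, 7.38, 7.43 and 7.40 in null placebo livers. Its groups overlapped, and the difference of 0.15 had an interval of -0.05 to 0.36, whose upper end is below 1.5-fold. Cyp3a11, a PXR target, differed by 0.14 (interval -0.23 to 0.52). Cyp1a1, an aryl hydrocarbon receptor target, differed by -0.01 with a wide interval of -0.84 to 0.82, in which null E2 animal 2 read -2.21 and the other 4 read -4.51 to -4.20. Without that animal the Cyp1a1 difference was -0.43. Cyp1a2 differed by -0.26 (interval -0.60 to 0.08).

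Of 17 CAR targets none had an unadjusted p under 0.05, and the median difference was 0.08. Of 11 PXR targets 1 was lower and none higher, with a median of -0.06, and of 9 aryl hydrocarbon receptor targets none passed, with a median of -0.03. Sult1e1, the estrogen sulfotransferase that inactivates E2, differed by -0.32, with an interval from -1.57 to 0.93 that leaves it without a limit at 2-fold. Of the 22 genes of estrogen metabolism none passed at an unadjusted p under 0.05, and 21 had intervals inside 2-fold. Of 23 estrogen targets known from other tissues, Ihh alone passed at the unadjusted threshold (-0.81, unadjusted p = 0.0028, adjusted p = 0.818), and the median was -0.03. Over all genes compared, the same threshold passed 2.83% upward and 3.33% downward, and the median was -0.01.

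Gene groups of stress and of metabolism were described in the same way, and none of their members was called. Over all genes compared, 11380 of 21237 differences were below 0 and 9857 above. Members of a list can vary together between livers, so a count of signs is not a test. For 20 glucocorticoid targets the median was -0.30, with 19 differences below 0 and 3 past an unadjusted p of 0.05. Ddit4, an inhibitor of mTORC1 that glucocorticoids induce, read 4.34, 2.95, 4.13, 3.69 and 4.67 in null E2 livers, against 6.11, 4.37, 5.29, 5.11 and 5.09 in null placebo livers. Null E2 animal 5 overlapped null placebo animal 2, and the difference was -1.24 ± 0.51 (adjusted p = 0.818). Klf9 differed by -0.34 and Sds, serine dehydratase, by -0.42. The mean level of the list lay between 5.31 and 5.85 in null E2 livers and between 5.54 and 6.39 in null placebo livers, so the groups overlapped. In wild types its median was 0.21, and Ddit4 differed by 1.69, Sds by 0.70 and Klf9 by 0.14. None of these 3 was called in wild types or for the difference between the effects (limma, adjusted p from 0.222 to 0.799). Mean Ddit4 under placebo was 5.19 in nulls and 2.99 in wild types.

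For 22 genes of male-biased expression in liver the median was -0.36, with 19 below 0 and 5 lower at the unadjusted threshold, namely Cyp2d9, Cyp4a12a, Cyp4a12b, C6 and Ntrk2. Cyp2d9, a steroid hydroxylase, read 4.022, 3.896, 5.204, 4.915 and 5.110 in null E2 livers, against 5.88, 5.49, 5.03, 5.01 and 5.24 in null placebo livers, and E2 animals 1 and 2 were the lowest. Without E2 animal 2 the median of the list was -0.25. For 27 genes of female-biased expression the median was 0.11, with 18 above 0 and only Ntrk2 past the unadjusted threshold. Ntrk2 was put on both lists, so its fall speaks for neither direction of sex bias. In wild types the medians of the male-biased and female-biased lists were -0.22 and 0.06. Of 29 immediate early genes the small GTPase gene Rhob (-0.48) and the AP-1 gene Jun (-0.61) were lower at the unadjusted threshold, and the median was -0.06.

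Of 26 fatty acid synthesis genes, Lpin2 (-0.65) and Srebf1 (-0.33), the lipogenic transcription factor, were lower at the unadjusted threshold, with 24 of 26 below 0 and a median of -0.16. Of 32 genes of PPAR-alpha and fatty acid oxidation, Acaa1b (0.34) and Vnn1 (0.52) were higher and the median was 0.09, a median that turned to -0.01 under array median scaling. For 22 cholesterol synthesis genes the median was -0.12, for 23 genes of bile acids -0.07, for 17 targets of cAMP and fasting -0.15 and for 25 hepatocyte transcription factors -0.03. The medians were -0.09 for 31 genes of the acute phase and complement, -0.12 for 27 of ER stress, 0.08 for 26 of the interferon response and 0.07 for 19 of the cell cycle. Of 18 clock genes the median was -0.02, which turned to 0.02 after quantile normalization, and Rora (-0.38) and Ciart (-0.64) were lower while Per2 (0.30) was higher at the unadjusted threshold.

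Markers of other cells that a piece of liver can hold were described in the same way, and none was called. Some lists ran mostly one way: 13 of 15 Kupffer cell markers were above 0, and 13 of 14 of stellate cells and fibroblasts below it. All 8 hepatocyte markers were below 0, and so were 6 of 7 of adipose tissue and mesothelium, 2 of them at the unadjusted threshold. Others were mixed, such as neutrophils with 4 of 7 above 0. Medians were 0.18 for 15 Kupffer cell markers, 0.15 for 11 of T and NK cells, 0.14 for 12 of sinusoidal endothelium, 0.09 for 5 of B and plasma cells and 0.08 for 7 of neutrophils. They were -0.09 for 14 of stellate cells and fibroblasts, -0.07 for 8 of erythroid cells, 0.07 for 4 of exocrine pancreas and -0.33 for 7 of adipose tissue and mesothelium, a list that holds Plin4. The median of the 8 hepatocyte markers was -0.08. The Kupffer cell markers averaged 1.33 to 2.28 in null E2 livers and 1.09 to 1.99 in null placebo livers. With array median scaling the median over all genes compared was -0.12, and the medians of the B cell, neutrophil, pancreas, interferon, cell cycle, CAR and estrogen receptor lists are then below 0. The neutrophil and pancreas medians are below 0 after normexp correction as well.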

How the data were processed

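Per the file headers, Agilent Feature Extraction 10.10.1.1 gave each spot of the 1-colour arrays a processed intensity, background-subtracted and detrended, with probes placed on mm9. The authors also deposited log2 values for 32526 probes, used as an alternative. Per the submitters' processing notes they used limma.

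Levels here are log2 of this value relative to the 75th percentile of the array's 59305 non-control spots. Probes well above background on 4 of 5 arrays of any group were kept (30960 of 55681), with the brightest per gene, which left 21998 genes. Symbols came from a RefSeq table where accessions, symbols or synonyms matched. The spread was shared over 20 arrays in 1 limma 3.58.1 fit (R 4.3.3, 16 residual and 2.44 prior degrees of freedom), 2-sided. Animals were separate, so the p-values measure the spread between animals, and the number of arrays limits the precision. The script was also tested on simulated data.

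Genes named were the called one, the 10 higher and 10 lower ones of smallest p without overlap and the 5 largest differences each way (both among genes with a symbol), the 10 largest rises and the falls called in wild types without overlap, 8 receptor and target genes, and up to 3 members per list. Members and the 34 gene lists were chosen with earlier results of these data known.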

Additional observations from a re-analysis of the deposited data

Results flagged for a closer look

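Values that stood far from the rest of their group were looked for in 102 groups of 5 animals (51 named genes), where chance alone marks about 1 in 20 groups. Rab38 in null E2 animal 2 read -0.50, while the other 4 animals read -2.44 to -1.98. Cyp1a1 in the same animal read -2.21, against -4.51 to -4.20 in the other 4. AA414992 in null E2 animal 5 read -7.29, against 1.51 to 3.36. D330023K18Rik in null placebo animal 4 read -3.51, against -3.22 to -3.11.

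For 10 named genes the E2 effect in nulls differed from that in wild types by the test of the difference itself (limma, adjusted p under 0.05). The null effect minus the wild-type effect was -6.07 for Slc34a2, -3.93 for Corin, -3.83 for Gdf15, -2.95 for Mmd2, -2.87 for Krt4, -2.75 for Hrob, -2.63 for Rab44, -2.28 for Asb2 and -2.23 for Krt79. For Catsper2 alone among them it was above 0, at 0.81. The differences for Slc34a2, Krt4, Corin and Rab44 include arrays on which the probe was not well above background, so their size is not a bound.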

How the results depend on the processing

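The count of 1 gene called for E2 in nulls was 0 with only the null arrays in the fit, with array median scaling, with no filter on dim probes, with the mean over the probes of a gene and with only animals numbered above 743, and 2 with slide as a block. With each null array left out it ranged from 0 to 2, being 0 when null E2 animal 1, 2 or 4 was left out, or placebo animal 2 or 4, and 2 without null placebo animal 3. The replicate numbers do not pair the animals, since deviations of same-numbered animals correlated at -0.16 to 0.087. With the number as a replicate block the count was 0, and 2 of 5 animals correlated best with their own number. Catsper2 kept a difference of 0.45 to 0.71 in the 13 other settings and 10 fits without 1 array, and passed the test in 7 and 5 of them.

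The share of genes with an interval inside 2-fold was 85.2% to 97.9% in the 13 settings and 89.0% to 90.8% with 1 array left out. The null interval excluded the wild-type effect for 70 of 70 wild-type genes with each null array left out and in the other settings that tested all of them, except for 69 with array median scaling and 67 with only animals numbered above 743. It did so for 60 of 60 when only genes detected in nulls were tested. A fit of the null arrays alone has no wild-type effect and gave no value for this count or for the difference between the effects. The 36 genes with unequal effects became 18 with array median scaling and 10 with only animals numbered above 743, and 31 to 39 with 1 null array left out. The share at an unadjusted p under 0.05 ran from 3.78% to 8.08%, lowest without null E2 animal 2 and highest without null E2 animal 5. The median difference of all genes compared was -0.01, and -0.12 with array median scaling. The averaged contrast, called for 29 genes, was called for 10 with array median scaling and 18 with slide as a block. Shared spread may understate the intervals of genes that vary more in nulls, slide 4 held null E2 animal 2 and no null placebo animal, and dim probes limit what a null result shows.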
